A study of Mus musculus with 15 samples.

Results

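The 5 genes described here are the angiopoietins Angpt1, Angpt2 and Angpt4 and the Tie receptors Tek and Tie1, taken by symbol from a table of 37681 gene rows counted in the mouse thoracic aorta. All 5 symbols were found, and all 5 genes passed the filter on low counts that left 15134 genes for testing. The family was chosen by a reader of earlier results of these same libraries, with the fold changes of all 3 comparisons between groups already known. The differences between groups are therefore given below as a description of these libraries, and their p-values support nothing further.

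Angiopoietins are secreted ligands of the receptor tyrosine kinase Tie2, which is encoded by Tek and is found mainly on endothelial cells. Angpt1, made mostly by cells around the endothelium, activates Tie2 and keeps vessels quiescent, whereas Angpt2, stored in endothelial Weibel-Palade bodies, acts as a weak agonist or an antagonist depending on context. Angpt4 is a further Tie2 ligand, and Tie1 is a related receptor that pairs with Tie2 and tunes its signalling.

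All animals were wild-type adult male C57BL/6 mice, 10 to 12 weeks of age, kept on regular chow under alternating light and dark periods. They received 100 µL by gavage of the PEG-400 vehicle, of celecoxib at 30 mg/kg or of rofecoxib at 10 mg/kg, and were killed 6 h later, at Zeitgeber time 11 (ZT11). Celecoxib and rofecoxib inhibit cyclooxygenase-2, the enzyme encoded by Ptgs2. Polyadenylated RNA was sequenced in 5 libraries per group. The labels number the libraries but do not say that each is from its own animal, so p-values measure the spread between these libraries. The doses of the drugs differ, so drug and dose cannot be told apart in the comparison of celecoxib with rofecoxib, and both comparisons with vehicle share the same 5 vehicle libraries.

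The deposited counts summed to between 30937046 and 30967115 per library, and between 19158 and 19746 genes had a count. Levels are given in counts-per-million (CPM) of the scaled library. The 9 smooth muscle markers, Myh11 and Acta2 among them, summed to 38220 to 54300 CPM over the 15 libraries, and the 14 endothelial markers other than Tek and Tie1 were all present. Libraries stood apart in tissue that adjoins the aorta. Schwann cell and neuron markers exceeded 300 CPM in celecoxib library 4, rofecoxib library 5 and vehicle library 4, against 24.8 to 216 CPM in the others. The 8 brown adipocyte markers summed to 460 to 1761 CPM with vehicle, 126 to 601 CPM with celecoxib and 265 to 548 CPM with rofecoxib. Their median log2 fold changes against vehicle were -1.18 and -0.96. Unadjusted p-values of edgeR's quasi-likelihood test lay below 0.05 for 8 of 8 and 7 of 8, against 12.5% and 5.18% of all genes tested. Ptgs2 itself was counted at 25.6 ± 5.35 CPM with vehicle, 52.0 ± 22.7 CPM with celecoxib and 35.0 ± 9.03 CPM with rofecoxib (mean ± SD, n = 5 each). In whole tissue, fewer cells of a type and less RNA per cell cannot be told apart, and this holds for every value below.

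In mm9 coordinates, Angpt1 (ENSMUSG00000022309) spans chr15:42256071-42508725, Angpt2 (ENSMUSG00000031465) chr8:18690061-18741764 and Angpt4 (ENSMUSG00000027460) chr2:151736741-151771275. Tek (ENSMUSG00000006386) lies at chr4:94405778-94541869 and Tie1 (ENSMUSG00000033191) at chr4:118143594-118162868, on the same chromosome. Angpt2 lies wholly within the span of Mcph1, a gene of chromosome condensation that had 142 to 263 counts per library. Since the use of strand in counting is not known, reads of Angpt2 and Mcph1 cannot be told apart with certainty. The span of Angpt1 overlaps that of Gm17473, which had 0 to 2 counts.

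RefSeq promoter sequences, from 250 bases before to 50 bases after the start site in GRCm38.p6, were at hand for 3 of the 5 members. All 3 are shown, and whether their letters bear on the levels described below was not tested. Each is printed from 5′ to 3′ on the strand of the gene. Capitals mark the motif AGGAAG, a sequence bound by ETS factors that regulate endothelial genes, or its reverse complement, which reads CTTCCT.
Angpt4 (chr2:151910957-151911256, plus strand): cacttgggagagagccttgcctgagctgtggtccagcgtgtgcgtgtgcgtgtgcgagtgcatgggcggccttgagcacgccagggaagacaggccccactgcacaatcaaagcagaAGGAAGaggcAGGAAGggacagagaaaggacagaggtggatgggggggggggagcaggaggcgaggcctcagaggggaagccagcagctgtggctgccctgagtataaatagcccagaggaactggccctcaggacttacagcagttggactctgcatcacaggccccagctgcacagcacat
Tek (chr4:94739039-94739338, plus strand): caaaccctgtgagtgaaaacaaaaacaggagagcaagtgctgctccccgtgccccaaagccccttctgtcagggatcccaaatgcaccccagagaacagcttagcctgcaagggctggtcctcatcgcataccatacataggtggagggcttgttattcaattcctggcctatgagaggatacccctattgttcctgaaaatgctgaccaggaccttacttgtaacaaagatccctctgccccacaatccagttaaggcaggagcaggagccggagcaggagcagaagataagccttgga
Tie1 (chr4:118489800-118490099, minus strand): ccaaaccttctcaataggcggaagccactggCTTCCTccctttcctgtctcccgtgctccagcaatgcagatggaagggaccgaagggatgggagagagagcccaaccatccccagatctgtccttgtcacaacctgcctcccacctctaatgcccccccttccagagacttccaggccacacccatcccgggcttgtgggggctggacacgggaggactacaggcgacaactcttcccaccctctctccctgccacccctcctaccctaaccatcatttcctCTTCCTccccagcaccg
The Angpt4 promoter held the motif 133 and 123 bases before the start site, on the strand of the gene both times. The Tie1 promoter held it on the opposite strand, 219 bases before and 34 bases after the start site. The Tek window held 0 matches to it and 1 match, 37 bases after the start site, to AGATAA, which factors of the GATA family bind. The FOXO motif GTAAACA and the E-box motif CACGTG were sought too, with 0 matches in each of the 3 promoters. On either strand, AGGAAG occurs in 35.4% and AGATAA in 11.2% of the 32851 RefSeq promoters of the same length. GTAAACA occurs in 3.65% and CACGTG in 7.15% of them. Shorter forms of these motifs were not sought. A match is a description of the letters only.

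Of the 3 ligands, Angpt4 differed most between the groups. With vehicle, the 5 libraries had 20.1, 20.6, 24.7, 24.6 and 27.4 CPM of Angpt4. With celecoxib they had 42.5, 33.8, 30.0, 24.5 and 37.2 CPM, and with rofecoxib 15.6, 7.91, 15.2, 15.8 and 22 CPM. The lowest celecoxib library lay above the highest rofecoxib library, so these groups did not overlap. Each of them overlapped vehicle through 1 library: celecoxib library 4 lay below vehicle libraries 3, 4 and 5, and rofecoxib library 5 lay above vehicle libraries 1 and 2.

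Group means of Angpt4 were 23.5 ± 3.06 CPM with vehicle, 33.6 ± 6.85 CPM with celecoxib and 15.3 ± 5.0 CPM with rofecoxib (SD, n = 5 each). Against vehicle, the Angpt4 log2 fold change was 0.52 ± 0.21 (SE, 1.43-fold) with celecoxib and the adjusted p was 0.339 (edgeR's quasi-likelihood test, adjusted over all genes by the method of Benjamini and Hochberg). With rofecoxib it was -0.62 ± 0.21 (0.652-fold) and the adjusted p was 0.896 by the same edgeR test. Neither passed the test, although 4 of 5 celecoxib libraries lay above the vehicle median and 5 of 5 rofecoxib libraries below it. Between the drugs, at their unequal doses, the Angpt4 log2 difference was 1.14 ± 0.21, or 2.2-fold with a 95% interval of 1.61 to 3. Its unadjusted p of 8.96e-05 ranked 2 of 15134 genes, and its adjusted p by edgeR was 0.526, so it was not called. DESeq2, run as an alternative, called it, with a log2 difference of 1.14 and an adjusted p of 0.000797. Under the other 12 models and with each library left out, the adjusted p lay between 0.212 and 0.884. Angpt4 has no overlapping gene in the table.

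**Figure D1:**
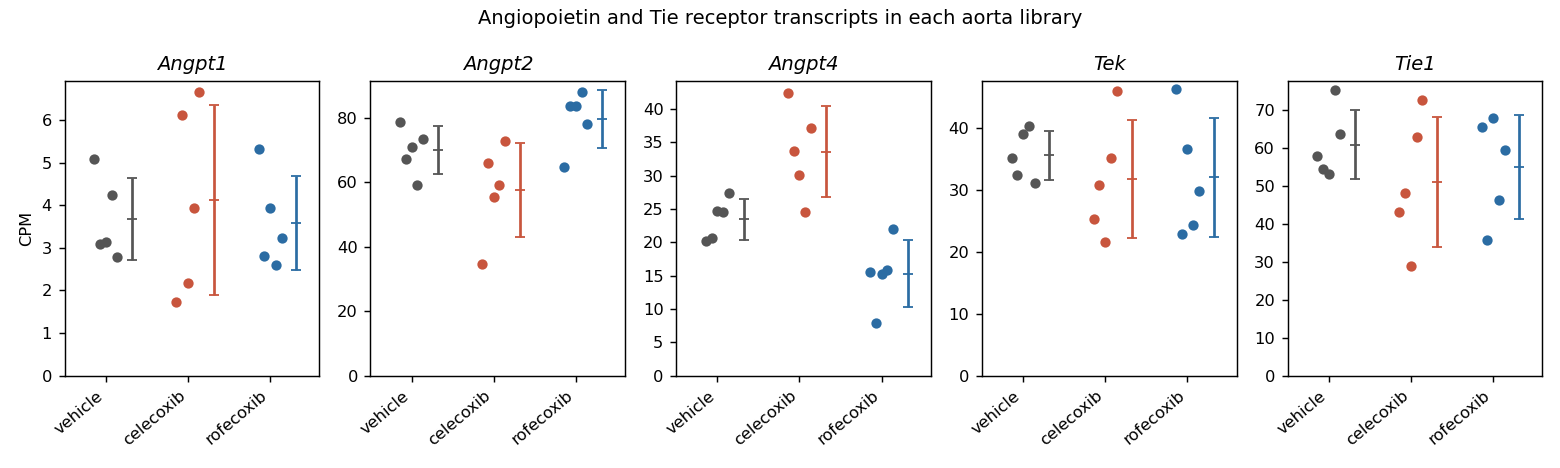
CPM of Angpt1, Angpt2, Angpt4, Tek and Tie1 in each of the 15 libraries by group, with the group means and SD (n = 5). Angpt4 ranged from 24.5 to 42.5 CPM with celecoxib and from 7.91 to 22 CPM with rofecoxib, without overlap. The groups overlapped for Angpt1, Angpt2, Tek and Tie1.

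The group differences of Angpt4 stood beside differences in other tissue components, whose part in them was not tested. With the mean of the endothelial markers as a covariate, the Angpt4 log2 fold changes were 0.69 with celecoxib and -0.47 with rofecoxib against vehicle, and 1.16 between the drugs. With the brown adipocyte markers as a covariate they were 0.63, -0.55 and 1.17. Without the 3 libraries rich in nerve markers, the difference between the drugs was 1.40 (adjusted p = 0.212 by edgeR's quasi-likelihood test). Markers of blood cells and platelets summed to 43.3 to 275 CPM with vehicle, 41.0 to 208 CPM with celecoxib and 26.0 to 126 CPM with rofecoxib.

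Angpt2, the context-dependent ligand, had the opposite order of group means. With vehicle the libraries had 78.7, 67.3, 70.9, 59.0 and 73.5 CPM. With celecoxib they had 34.5, 66.0, 55.5, 59.1 and 72.7 CPM, and with rofecoxib 64.6, 83.5, 83.6, 88.0 and 78.1 CPM. Celecoxib library 1 was the lowest of all 15, and all 3 groups overlapped. Mean Angpt2 was 69.9 ± 7.38 CPM with vehicle, 57.6 ± 14.5 CPM with celecoxib and 79.6 ± 9.08 CPM with rofecoxib (SD, n = 5 each).

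The Angpt2 log2 fold change against vehicle was -0.28 ± 0.16 (0.824-fold, adjusted p = 0.487, edgeR) with celecoxib and 0.19 ± 0.16 (1.14-fold, adjusted p = 1, edgeR) with rofecoxib. Without celecoxib library 1 the former was -0.13. With the brown adipocyte markers as a covariate they were -0.48 and 0.054. Between the drugs the Angpt2 log2 difference was -0.47 ± 0.16, or 0.724-fold, with an unadjusted p of 0.00914 (edgeR, 0.649 after adjustment). All 5 celecoxib libraries lay below the rofecoxib median. Mcph1, whose span contains Angpt2, stood at 0.934-fold and 0.973-fold of vehicle with celecoxib and rofecoxib.

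Angpt1, the main Tie2 agonist, was the least abundant member and the least precisely measured, with 51 to 206 counts per library. With vehicle it had 5.08, 3.09, 3.14, 4.25 and 2.79 CPM, with celecoxib 1.73, 6.12, 2.17, 3.94 and 6.67 CPM, and with rofecoxib 5.32, 2.80, 3.94, 2.602 and 3.23 CPM. The celecoxib libraries held both the lowest and the highest values of the 15. The celecoxib SD was accordingly wide, at 4.13 ± 2.24 CPM against 3.67 ± 0.96 CPM with vehicle and 3.58 ± 1.10 CPM with rofecoxib (n = 5 each). The 95% intervals of the Angpt1 log2 fold change against vehicle ran from -0.56 to 0.90 with celecoxib and from -0.77 to 0.70 with rofecoxib.

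The balance of both main ligands is often given as the ratio of Angpt2 to Angpt1. Taken per library from CPM, it was 20 ± 5.18 with vehicle, 16.4 ± 6.35 with celecoxib and 24.2 ± 8.34 with rofecoxib (SD, n = 5 each, not tested). The ranges were 13.9 to 26.3, 10.8 to 25.6 and 12.1 to 33.8, so the groups overlapped widely.

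Both receptors had their highest group mean with vehicle. Tek, which encodes Tie2, had 35.2, 32.5, 39.0, 40.3 and 31.2 CPM with vehicle. It had 25.3, 30.9, 21.6, 35.2 and 46.1 CPM with celecoxib, and 46.4, 22.9, 36.7, 24.4 and 29.8 CPM with rofecoxib. Each drug group held at least 1 library above and 1 below the whole vehicle range. The SD of Tek was 3.98 CPM with vehicle, 9.53 CPM with celecoxib and 9.67 CPM with rofecoxib, around means of 35.6, 31.8 and 32.03 CPM.

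Tie1, the partner of Tie2, had 57.8, 54.3, 53.0, 75.3 and 63.5 CPM with vehicle. It had 43.1, 48.2, 28.8, 62.7 and 72.5 CPM with celecoxib, and 65.4, 35.6, 67.8, 46.3 and 59.4 CPM with rofecoxib. The lowest values of both receptors thus came from the drug groups, celecoxib library 3 having the least Tek and the least Tie1. Mean Tie1 was 60.8 ± 9.06 CPM with vehicle, 51.0 ± 17.1 CPM with celecoxib and 54.9 ± 13.6 CPM with rofecoxib (SD, n = 5 each). For Tek the log2 fold change against vehicle was -0.16 ± 0.21 with celecoxib and -0.15 ± 0.21 with rofecoxib, and for Tie1 it was -0.25 ± 0.23 and -0.15 ± 0.22. With each library left out, they ranged from -0.32 (without celecoxib library 5) to -0.0439 (without celecoxib library 3) for Tek with celecoxib and from -0.33 (without rofecoxib library 1) to -0.0481 (without rofecoxib library 2) with rofecoxib. For Tie1 they ranged from -0.40 (without celecoxib library 5) to -0.0941 (without celecoxib library 3), and from -0.23 (without rofecoxib library 3) to -0.0171 (without rofecoxib library 2). Each of the 4 intervals over all libraries included 0, and that of Tie1 with celecoxib reached from -0.73 to 0.23. Between the drugs, Tek differed by -0.01 on the log2 scale (95% interval -0.46 to 0.44) and Tie1 by -0.10 (-0.59 to 0.38).

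Beside the receptors, the endothelial markers also had negative medians. Their sum ranged from 982 to 1331 CPM with vehicle, 893 to 1337 CPM with celecoxib and 788 to 1231 CPM with rofecoxib, and their median log2 fold changes were -0.14 and -0.23. As a percentage of that sum, Tek was 3.10 ± 0.28% with vehicle, 2.88 ± 0.54% with celecoxib and 3.10 ± 0.40% with rofecoxib. Tie1 was 5.27 ± 0.45%, 4.60 ± 1.05% and 5.34 ± 0.56% in the same order. Pecam1 was the largest single part of that sum, at 338, 364 and 297 CPM on average in the same order. It was 1 of 2 endothelial markers with a positive log2 fold change with celecoxib. With the mean of the endothelial markers as a covariate, the fold changes of both receptors against vehicle took the opposite sign, at 0.05 and 0.08 on the log2 scale for Tek and 0.01 and 0.15 for Tie1 with celecoxib and rofecoxib. The ratio of Tek to Tie1 was 0.594 ± 0.0927, 0.635 ± 0.0718 and 0.585 ± 0.0885 in vehicle, celecoxib and rofecoxib libraries (SD, n = 5 each).

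**Figure D2:**
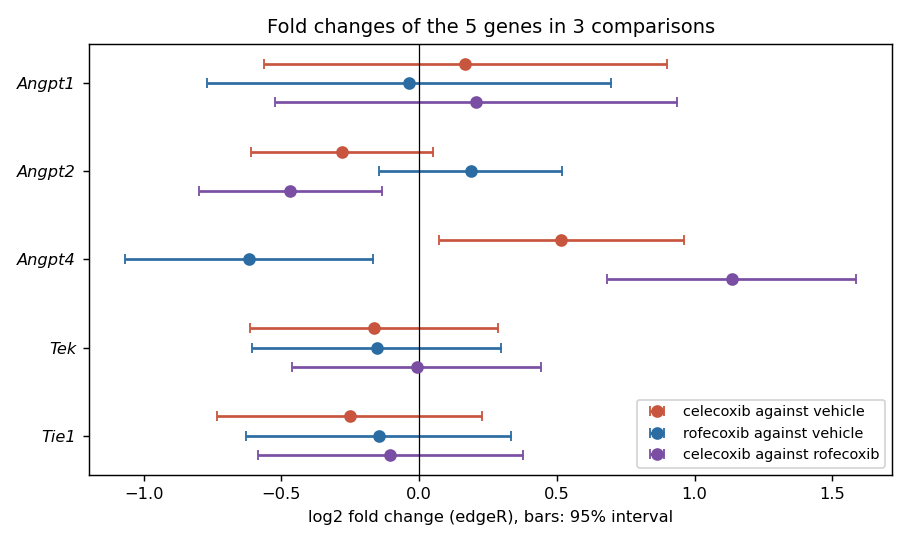
Log2 fold changes of the 5 members in the 3 comparisons, with 95% intervals from edgeR. Between the drugs the Angpt4 value of 1.14 (interval 0.68 to 1.59) lies farthest from 0, and the intervals of Tek, Tie1 and Angpt1 include 0 in each comparison.

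Counted as a family, 0 of 5 members passed an adjusted p of 0.05 in any comparison by edgeR's quasi-likelihood test or by limma-voom, and DESeq2 called 1, Angpt4 between the drugs. For celecoxib against vehicle, 0% of all genes tested were called by edgeR, 12.5% had an unadjusted p below 0.05 and 1.3% had group ranges that did not overlap. Of the 5 members, 1 had such an unadjusted p, Angpt4. For rofecoxib against vehicle, the shares of all genes were 0%, 5.18% and 1.16%, and again 1 of 5 members, Angpt4, had an unadjusted p below 0.05. For celecoxib against rofecoxib, the shares were 0%, 6.96% and 1.32%, and 2 of 5 members had an unadjusted p below 0.05, Angpt2 and Angpt4. Since these comparisons were known when the family was chosen, nothing is read from the members' counts. The median log2 fold change of the members was -0.16, -0.15 and -0.01 in the 3 comparisons, against medians of 0.0051, -7e-04 and 0.0052 over all genes. Over all genes, DESeq2 called 129, 0 and 20, limma-voom called 0, 0 and 0, and edgeR gave 1896, 784 and 1053 unadjusted p-values below 0.05.

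**Figure D3:**
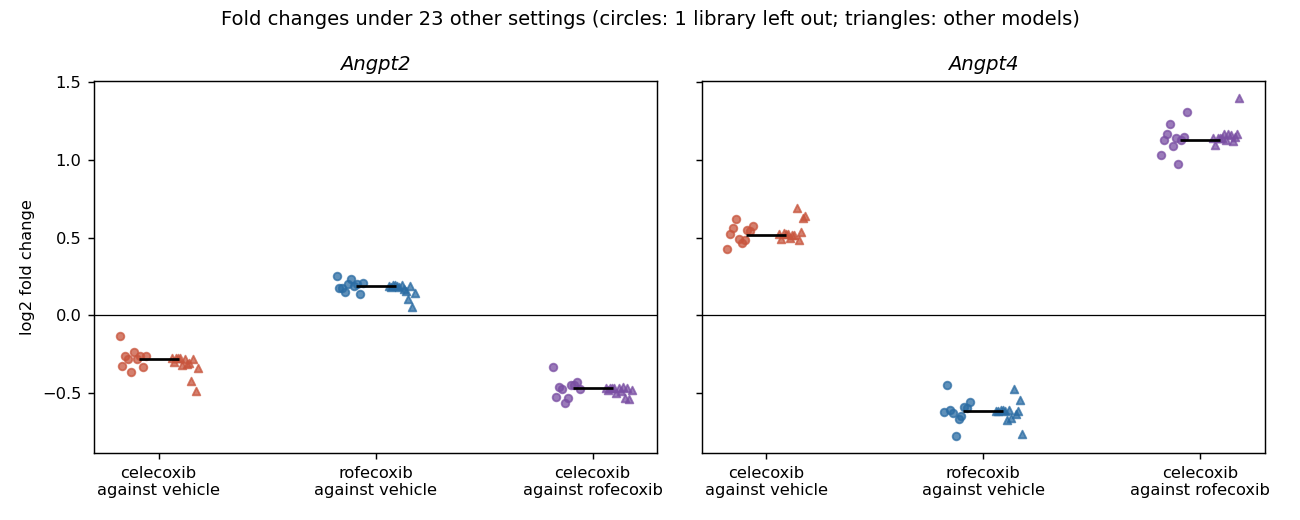
Log2 fold changes of Angpt2 and Angpt4 in the 3 comparisons under 23 other settings, with circles for fits without 1 library, triangles for other models and bars for the values in the text. Angpt4 stayed between 0.43 and 0.69 for celecoxib against vehicle, between -0.78 and -0.45 for rofecoxib against vehicle and between 0.97 and 1.40 for celecoxib against rofecoxib, and Angpt2 between -0.48 and -0.13, 0.054 and 0.25, and -0.57 and -0.33.

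To compare levels between genes, CPM was divided by the length of each gene's merged exons in GENCODE M21, an annotation that need not be the one used for counting. On this scale of CPM per kilobase, in the vehicle libraries, Angpt2 (3690 bases) was highest at 18.9 ± 2.0, followed by Tie1 (4917 bases) at 12.4 ± 1.84. Angpt4 (2335 bases) followed at 10.0 ± 1.31, Tek (4712 bases) at 7.56 ± 0.84 and Angpt1 (5205 bases) at 0.705 ± 0.185 (SD, n = 5 each). The ranges of 1 SD around Tie1 and Angpt4 overlapped, whereas those of the other neighbours in this order did not, and Angpt1 was far below every other member. With celecoxib, Angpt4 reached 14.4 ± 2.93 CPM per kilobase, close to Angpt2 at 15.6 ± 3.93. With rofecoxib, Angpt4 stood at 6.55 ± 2.14 and Angpt2 at 21.6 ± 2.46.

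Whether ligands and receptors varied together between libraries was measured after subtracting each group's mean of log2 CPM, so that differences between groups did not enter. A family of 60 relations over the 15 libraries was computed, 10 between members and 50 of a member with the mean of a marker list, with permutation within groups. Of these, 6 had an adjusted p below 0.05 for Pearson's r, 2 of them between members. Tek and Tie1 varied together, with r = 0.864 (permutation p = 0.00107, adjusted 0.0214) and Spearman's rho = 0.861 (permutation p = 0.00175, adjusted 0.021). Without the 2 libraries farthest from the median of Tek, r was 0.859. Angpt1 and Tek also varied together, with r = 0.789 (permutation p = 0.0024, adjusted 0.0288) and rho = 0.839 (permutation p = 0.00143, adjusted 0.021), and r = 0.746 without the 2 farthest libraries. That call was lost on leaving out any of 5 single libraries, celecoxib 5 or rofecoxib 1, 2, 3 or 4, with r from 0.718 to 0.798.

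The endothelial markers varied with both receptors. For Tie1, r was 0.927 (permutation p = 8e-05, adjusted 0.0048), rho was 0.886 (permutation p = 0.00017, adjusted 0.0086) and r without the 2 farthest libraries was 0.924. For Tek, r was 0.805 (permutation p = 0.00336, adjusted 0.0336), rho was 0.829 (permutation p = 0.00233, adjusted 0.0233) and r without the 2 farthest libraries was 0.813. Lymphatic endothelial markers were averaged over the 5 that passed the filter, Lyve1, Flt4, Pdpn, Mmrn1 and Reln, and so without Prox1 and Ccl21a. Their mean gave r = 0.871 with Tie1 (permutation p = 0.00028, adjusted 0.0084, rho = 0.871) and r = 0.796 with Tek (permutation p = 0.00158, adjusted 0.0237, rho = 0.861). Not every call of a receptor with these markers held when 1 library was left out. Without rofecoxib library 2, 3 relations passed the threshold, Tek with Tie1 among them. Without celecoxib library 4, 4 passed, among them Tek with Tie1 and Angpt1 with Tek. The points share libraries and depth. Lymphatic markers were few, at 37.1 to 85.2 CPM summed over all 7 listed, with Ccl21a at 0 in every library.

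The ligands did not pass the test with the endothelial markers. For Angpt4, r was 0.544 (permutation p = 0.108, adjusted 0.295) and rho was 0.375 (permutation p = 0.219, adjusted 0.486). Without the 2 libraries farthest from the median of Angpt4, r was 0.169. Angpt2 gave r = -0.14 with the endothelial markers (permutation p = 0.689, adjusted 0.805). It gave r = 0.128 with Tek (permutation p = 0.745, adjusted 0.817) and -0.264 with Angpt4 (permutation p = 0.335, adjusted 0.575). For Angpt1, the markers of pericytes, the cells that wrap small vessels, gave r = 0.752 (permutation p = 0.00861, adjusted 0.0738), and 0.536 without the 2 farthest libraries. For Angpt4 the highest r with any marker list was that with blood cells and platelets, 0.626 (permutation p = 0.0222, adjusted 0.133), which was 0.883 without the 2 farthest libraries.

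**Figure D4:**
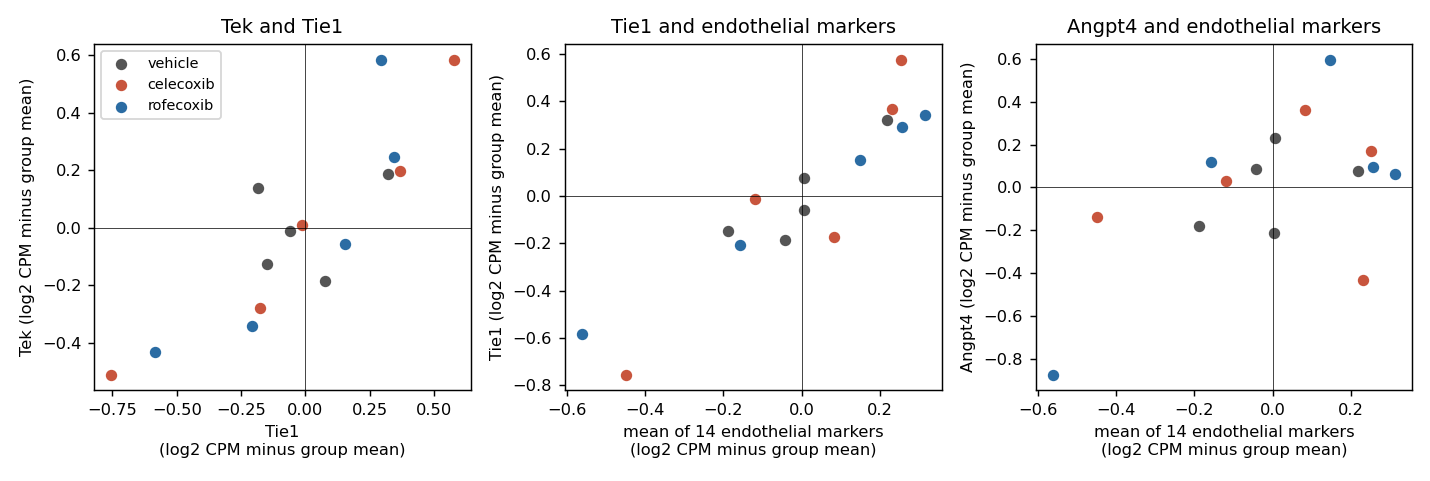
Group-centred log2 CPM per library for Tek against Tie1, Tie1 against the mean of 14 endothelial markers, and Angpt4 against the same mean, coloured by group. Pearson's r over the 15 libraries is 0.864, 0.927 and 0.544, and the last is 0.169 without the 2 farthest libraries.

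The genes whose group-centred levels were most like each member's were sought by Pearson's r over the 15 libraries among 12035 genes with a mean of at least 1 CPM. These r values describe the libraries and carry no test. For Tek they were Lasp1 (0.927), Tec (0.926), Cd93 (0.924), Ptprb (0.914) and Cpd (0.913). Ptprb encodes VE-PTP, the endothelial phosphatase that removes phosphate from Tie2, and Cd93 encodes an endothelial surface glycoprotein. For Tie1 they were Ly6e (0.975), Card10 (0.964), Mmrn2 (0.956), Arap3 (0.953) and Unc45b (0.953), of which Mmrn2 encodes an endothelial matrix protein that binds CD93. For Angpt1 they were Plcg2 (0.957), Tmem158 (0.944), Cd83 (0.941), Anpep (0.938) and Mov10 (0.933), where Anpep encodes aminopeptidase N. For Angpt2 they were Hps1 (0.941), Pip5k1c (0.909), Gmcl1 (0.906), Bfsp1 (0.904) and Camk2n1 (0.9). For Angpt4 the values were lower, with Timp4 (0.806), Mlf1 (0.789), Tcf23 (0.776), Pear1 (0.77) and Hdc (0.751). Timp4 encodes an inhibitor of metalloproteinases and Hdc the enzyme that makes histamine.

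Other genes of the pathway were read from lists, members left out, and 0 of their genes were called by edgeR in any comparison. Among 9 tested partners of Tie2 and modifiers of its ligands, 1 had an unadjusted p below 0.05 with celecoxib, on the low side, and 1 with rofecoxib, on the high side. Over all genes, 12.5% and 5.18% had such a p in either direction. Adam17, a sheddase of surface proteins, was counted at 57.5 ± 7.29 CPM with celecoxib against 64.4 ± 1.67 CPM with vehicle (0.893-fold, a log2 fold change of -0.16 that was -0.11 without celecoxib library 1), and Itga5, the integrin alpha-5 subunit, stood at 1.3-fold. With rofecoxib, Cav1, which encodes caveolin-1, stood at 1.11-fold and the integrin beta-1 gene Itgb1 at 1.06-fold. Ptprb stood at 0.98-fold and 0.91-fold of vehicle with celecoxib and rofecoxib. The median log2 fold changes of this list were -0.01 and -0.06.

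Downstream of Tie2, 18 adaptors and kinases had median log2 fold changes of 0.04 and 0.004. With celecoxib 1 lay higher and 1 lower at an unadjusted p below 0.05, and with rofecoxib 1 lay higher and 0 lower. The shares of all genes with such a p, in either direction, were 12.5% and 5.18%. The gene that lay lower, Akt2, a kinase of the survival pathway that Tie2 feeds, was counted at 139 ± 16.3 CPM with celecoxib against 168 ± 10.4 CPM with vehicle (0.831-fold, adjusted p = 0.27 by edgeR). Nos3, the endothelial nitric oxide synthase gene, stood at 0.799-fold with rofecoxib, a log2 fold change of -0.32 that was -0.13 without vehicle library 4.

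FOXO1, which Tie2 signalling holds out of the nucleus, drives a set of target genes that includes Angpt2. Of 17 FOXO factors and targets other than Angpt2, 14 had a positive log2 fold change with celecoxib, 4 of them at an unadjusted p below 0.05, and the median was 0.13. Over all genes, 51.4% were positive in that comparison and 12.5% had such a p in either direction. With rofecoxib 9 were positive, against 49.7% of all genes, 1 lay higher and 1 lower at an unadjusted p below 0.05, against 5.18% of all genes in either direction, and the median was 0.01. Sesn1, a stress-response gene, was counted at 127 ± 29.3 CPM with celecoxib, 113 ± 8.72 CPM with rofecoxib and 90.5 ± 5.56 CPM with vehicle (1.4-fold and 1.25-fold). Txnip, an inhibitor of thioredoxin, stood at 1.62-fold with celecoxib, a log2 fold change of 0.69 that was 0.45 without celecoxib library 1. Ccng2, a cell cycle inhibitor, stood at 0.8-fold with rofecoxib. Foxo1 itself was at 104 ± 4.03 CPM with vehicle, 113 ± 28.6 CPM with celecoxib and 97.8 ± 7.59 CPM with rofecoxib.

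Transcription factors tied to Tek, Tie1 or Angpt2 numbered 13, with medians of -0.02 and -0.02 on the log2 scale. With celecoxib 0 had an unadjusted p below 0.05, against 12.5% of all genes. The ETS genes Ets1 and Fli1 had the smallest p there, at 0.89-fold and 0.869-fold. With rofecoxib 1 had an unadjusted p below 0.05, against 5.18% of all genes. It was Klf4 at 0.831-fold, followed by Tal1 at 0.751-fold. The log2 fold change of Klf4 was -0.27, and -0.17 without vehicle library 4, and that of Tal1 was -0.41, and -0.24 without rofecoxib library 2. In the Weibel-Palade body list, which covers the storage and release of Angpt2, the 15 genes had medians of 0.01 and -0.01. Exoc2, of the exocyst, stood at 1.1-fold and 1.05-fold. It alone had an unadjusted p below 0.05, with celecoxib, where 12.5% of all genes had one. Stxbp5 stood at 1.08-fold with celecoxib and Igfbp7 at 1.07-fold with rofecoxib. Their log2 fold changes of 0.11 and 0.10 were 0.065 without celecoxib library 1 and, for Igfbp7, 0.063 without rofecoxib library 4 and 0.15 without vehicle library 2. That of Exoc2 with rofecoxib, 0.074, was 0.12 without vehicle library 3.

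Angiopoietin-like genes encode secreted relatives that do not bind Tie2, several of them acting on lipoprotein lipase. The 6 tested had medians of -0.18 and -0.27 on the log2 scale. Gm6484, named Angptl8 in the reference table and known from adipose tissue and liver, was at 5.01 ± 6.25 CPM with vehicle, 0.922 ± 0.625 CPM with celecoxib and 1.83 ± 1.41 CPM with rofecoxib. Its log2 fold changes of -2.43 and -1.45 were -1.28 and -0.30 without vehicle library 5. Angptl1 stood at 0.729-fold with celecoxib and Angptl4, an inhibitor of lipoprotein lipase, at 0.636-fold with rofecoxib. Their log2 fold changes of -0.46 and -0.65 were -0.25 without vehicle library 4 and -0.40 without vehicle library 3.

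Of 18 other angiogenic ligands and receptors, 16 had a negative log2 fold change with celecoxib and 15 with rofecoxib, with medians of -0.20 and -0.18. With celecoxib 6 lay lower and 1 higher at an unadjusted p below 0.05, and with rofecoxib 3 lay lower. Over all genes, 51.4% were positive with celecoxib and 49.7% with rofecoxib, and 12.5% and 5.18% had an unadjusted p below 0.05 in either direction. Vegfa, the principal endothelial growth factor, was counted at 110 ± 23.7 CPM with vehicle, 64.4 ± 16.4 CPM with celecoxib and 82.4 ± 13.4 CPM with rofecoxib (0.586-fold and 0.75-fold). Pdgfb, which recruits pericytes, stood at 0.659-fold with celecoxib. Dll4, a Notch ligand of arterial endothelium, and Flt1, a VEGF receptor, stood at 0.68-fold and 0.83-fold with rofecoxib. The smallest adjusted p in this list by edgeR's quasi-likelihood test was 0.26, for Vegfa with celecoxib. Kdr and Flt1 of this list are also endothelial markers, of which 12 of 14 were negative with celecoxib and 13 of 14 with rofecoxib. The brown adipocyte markers given above were lower in the same comparisons too. What part either tissue component had in these values was not tested.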

How the data were processed

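Polyadenylated RNA of mouse thoracic aorta was sequenced from 15 libraries, 5 per group, after TruSeq library construction. The authors deposited whole-number counts per gene with symbols and mm9 positions. Per the submitters' processing notes, CASAVA 1.8.2, STAR 2.5.2a and mm9 were used. For the counting tool, its use of strand and its annotation, the sources used here give nothing. The deposited counts summed to totals that differ by only 0.0971% of their mean, so a step to a common total is possible but not recorded, and the original depth is unknown. All 37 mitochondrial rows held 0 counts, and 0 columns of other samples were present. Libraries were built over 3 days per the labels, with no day given per library, so no batch term or within-batch value could be had.

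Genes were kept by filterByExpr (99.95% of counts) and scaled with TMM (trimmed mean of M-values, factors 0.953 to 1.04). A single edgeR quasi-likelihood fit over all 15 libraries was used, with Benjamini-Hochberg adjustment over 15134 genes and a threshold of 0.05 (R 4.3.3, edgeR 4.0.16, limma 3.58.1, DESeq2 1.42.0; common biological coefficient of variation 0.228). CPM used the scaled library sizes, with a prior count of 2 on the log2 scale. Relations used 100000 permutations within groups, two-sided, and 20000 when a library was left out. Within groups, pairs of libraries differed by a chi-square of 13 to 94 per gene, highest in the pairs with celecoxib library 1. That is beyond the sampling noise of unscaled counts, and whether the deposited counts are unscaled is not known. The fitting script was tested on simulated data. Alternatives were other scaling, other filters, DESeq2, limma-voom, fits of the 2 groups alone, a replicate block, marker covariates and each library left out. The brown adipocyte covariate and the joint removal of the 3 nerve-rich libraries were added after seeing the data.

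Genes named were the 5 members, the 2 of smallest p in each list and comparison with vehicle, and the 5 most like each member, predicted genes left out of the last; 1 gene that this rule names is not reported here. Ptgs2 served as a check, and Mcph1, Ptprb and Foxo1 and the marker genes named were added for their relation to the members. The members and lists were chosen with earlier results of these data known.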

Additional observations from a re-analysis of the deposited data

Results flagged for a closer look

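Angpt4 was picked out because the drug groups lay on opposite sides of vehicle. All 5 celecoxib libraries were above the vehicle mean of 23.5 CPM and all 5 rofecoxib libraries were below it, with a log2 difference between the drugs of 1.135. The test of that difference itself (edgeR, quasi-likelihood) had an adjusted p of 0.526, and the gene was chosen with this difference known. No library of any group stood apart from its group in any of the 5 members by Dixon's test at the 95% level. Over all genes, celecoxib library 1 differed most from its group, with a chi-square per gene of 63.1 to 94 in its pairs. Pairs of the other celecoxib libraries had 19.4 to 42. Celecoxib library 1 also held the highest Angpt4 and the lowest Angpt2 and Angpt1 of the 15 libraries. Without it, the log2 difference between the drugs was 1.03 for Angpt4 and -0.33 for Angpt2.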

How the results depend on the processing

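The log2 fold changes of Angpt2 and Angpt4 kept their direction in each comparison under all 23 alternatives, but Angpt2 moved to -0.48 with celecoxib and 0.054 with rofecoxib against vehicle with the brown adipocyte covariate. DESeq2 called 129 genes for celecoxib against vehicle and 20 between the drugs, among these Angpt4 (1.14), against 0 by edgeR, and the cause was not tested. Small values of the other members changed sign. With the endothelial covariate, Tek and Tie1 were 0.0538 and 0.00835 with celecoxib, and Angpt1, Tek and Tie1 were 0.20, 0.0754 and 0.15 with rofecoxib. Between the drugs Tek was 0.0733 with the adipocyte and 0.0251 with the brown adipocyte covariate. The latter put Angpt1 at -0.30 for celecoxib against vehicle and at -0.00431 between the drugs. Without the nerve-rich libraries Angpt1 was 0.0605 for rofecoxib against vehicle. Leaving out each library gave 0 to 8 called genes for celecoxib against vehicle (8 without celecoxib library 4, 1 without celecoxib 5, 2 without vehicle 2) and 0 to 1 between the drugs (1 without celecoxib 5). Angpt1 then ranged from -0.0617 to 0.37 with celecoxib, from -0.22 to 0.11 with rofecoxib and from -0.0366 to 0.40 between the drugs. Between the drugs Tek ranged from -0.18 to 0.16 and Tie1 from -0.27 to 0.0399. The number of relations past the threshold ranged from 3 (without rofecoxib library 2) to 7. With a replicate block, 0 genes were called in each comparison and Angpt4 was 0.52, -0.66 and 1.17. Deviations of same-numbered libraries correlated from -0.08 to 0.78, -0.70 to 0.41 and -0.72 to 0.35, above 0.1 in 3, 2 and 1 of 5 pairs, so the numbers were not taken to pair the libraries, and 3, 1 and 0 of 10 libraries correlated best with their own number. Angpt1 had the fewest counts of the members, at 51 to 206 per library.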
